A study of Mus musculus with 22 samples.

Results

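Glutathione S-transferases attach the tripeptide glutathione to electrophilic molecules, which makes these more soluble and ready for export. They fall into classes named by Greek letters, and the kidney, above all its proximal tubule, is rich in several of them. Glutathione also binds platinum drugs, and many transferase genes are known targets of NRF2, the transcription factor that responds to electrophiles. The 10 transferase genes described here were chosen by symbol from the 32858 genes counted in mouse kidney: Gsta1, Gsta2, Gsta3, and Gsta4 of the alpha class, Gstm1, Gstm2, and Gstm3 of the mu class, Gstp1 of the pi class, Gstt1 of the theta class, and Gstk1, a kappa-class enzyme of mitochondria and peroxisomes. All 10 had enough counts to be tested, along with 17131 genes in all. A further 19 transferase genes were taken as relatives, of which 18 could be tested.

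Kidney RNA of male C57Bl6/J mice, 8 to 10 weeks old, was profiled by RNA-Seq in 22 libraries, each with a number of its own in the labels, which do not say that each is a separate mouse. The groups were Vehicle (n = 5), KW6002 (n = 6), Cisplatin (n = 5), and Cisplatine + KW6002 as the labels spell it, called co-treated below (n = 6). Cisplatin, a platinum drug that injures the kidney tubule, was injected at 3 mg/kg on 6 consecutive days, and kidneys were taken 72 hours after the last dose. KW6002 (istradefylline), an antagonist of an adenosine receptor, was injected daily at 3 mg/kg from day -5 to day 7 in a DMSO and cremophor carrier; whether the Cisplatin mice received that carrier is not given in the sources used here. Bulk kidney RNA was measured, so that fewer cells of a type and less RNA per cell cannot be told apart. Libraries held 26471762 to 40510754 counts. Levels are CPM, counts scaled to a common library size after TMM adjustment, fold changes come from 1 edgeR quasi-likelihood fit of all 22 libraries, and p values are Benjamini-Hochberg adjusted over all genes tested. A call needed an adjusted p below 0.01 together with an at least 2-fold change up or down (1 on the log2 scale), and a single gene was read as changed at an adjusted p below 0.05. The p values measure only the spread between these libraries, which may be partly technical.

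Markers of kidney tubule were abundant in Vehicle kidneys, where 8 proximal tubule markers summed to 33966 to 38444 CPM. Co-treated replicate 6 stood apart with adrenal RNA, since 3 adrenal markers summed to 49.8 CPM there and to at most 2.67 CPM in the other 21 libraries. Fat markers also varied between libraries, from 37.9 to 982 CPM summed over 4 genes. The libraries carry numbers in the 300s (3 Vehicle and 3 KW6002 libraries) or the 500s (the other 16), and what the series of numbers stand for is not given in the labels.

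Several of these genes are nearly identical copies of each other, and only uniquely aligned 50-base reads were counted, so a read from a shared stretch was lost. The alpha genes Gsta4 (chr9:78182774-78209349, plus strand), Gsta1 (chr9:78230656-78242684, plus strand), and Gsta2 (chr9:78331018-78355788, minus strand) lie in 1 cluster with 2 further alpha genes, Gm3776 and Gm10639, while Gsta3 lies apart (chr1:21240589-21265661, plus strand; positions are from GENCODE M21 on GRCm38, the mm10 build). Over the coding sequence, Gsta1 was 99.7% identical to Gm3776, 97.6% to Gsta2, 74.1% to Gsta3, and 66.5% to Gsta4. The first 50 coding bases, all within 1 exon and as long as 1 read, show what this means for counting. They lie at chr9:78232240-78232289 for Gsta1, chr9:78258712-78258761 for Gm3776, chr9:78294806-78294855 for Gm10639, chr9:78341867-78341916 for Gsta2, chr1:21249772-21249821 for Gsta3, and chr9:78198290-78198339 for Gsta4. They are given 5′ to 3′ on the coding strand, with capitals where a base differs from Gsta1:
Gsta1: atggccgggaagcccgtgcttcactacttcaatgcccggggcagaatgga
Gsta2: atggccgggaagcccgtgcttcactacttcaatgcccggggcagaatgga
Gm3776: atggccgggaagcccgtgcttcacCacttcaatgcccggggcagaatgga
Gm10639: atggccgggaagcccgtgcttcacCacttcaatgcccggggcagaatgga
Gsta3: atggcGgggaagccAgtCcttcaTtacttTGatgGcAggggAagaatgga
Gsta4: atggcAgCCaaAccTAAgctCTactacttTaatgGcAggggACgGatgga
Gsta1 and Gsta2 did not differ over this stretch, Gm3776 and Gm10639 shared 1 substitution, T25C counted from the A of the start codon, and Gsta3 and Gsta4 differed from Gsta1 at 9 and 15 bases. A read of the first 50 bases of Gsta1 could therefore not be placed, whereas the same read of Gsta3 or Gsta4 could.

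Over the whole main transcript, 85 of the 826 possible 50-base windows of Gsta1 (10.3%) occurred in no other gene, and 685 were shared with Gm3776. The share was 35.8% for Gsta2, 37.7% for Gstp1, whose 98.1% identical neighbour is Gstp2, 67.0% for Gstm1, 71.2% for Gstm3, and 90.6% for Gstm2. It was 100% for Gsta3, Gsta4, Gstt1, and Gstk1. Over all annotated transcripts of a gene, the share was 9.50% for Gsta1, 50.2% for Gsta2, and 66.3% for Gstp1. The counts of these 3 genes are thus those of a part of each gene, which is small for Gsta1. A gene of the opposite strand, Gm28836, overlaps Gsta3, and the sources used here name a stranded kit but not the strand setting of the counts.

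**Figure D1:**
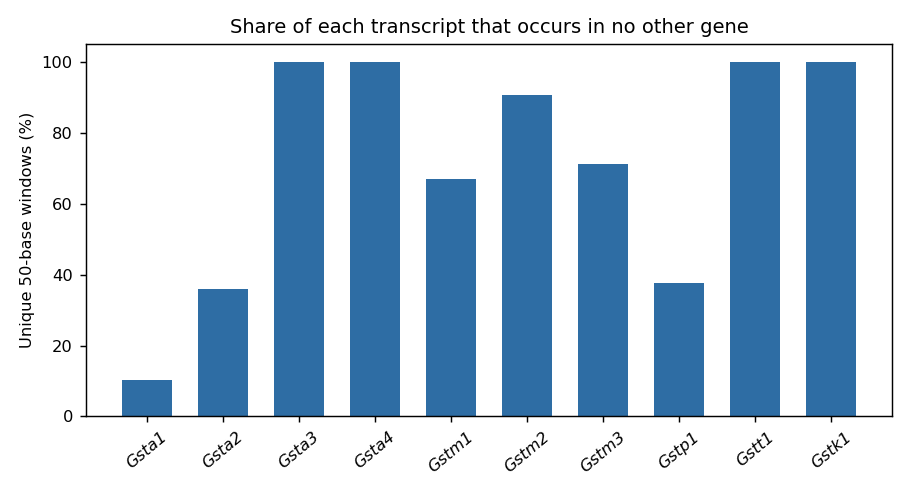
Share of the 50-base windows of each member's main transcript that occur in no other annotated gene, in percent (bars, 1 transcript per gene). The bar of Gsta1 stands at 10.3%, those of Gsta2 and Gstp1 below 40%, and those of Gsta3, Gsta4, Gstt1, and Gstk1 at 100%.

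The first comparison was that of Cisplatin with Vehicle kidneys. Of the 10 transferases, 7 were called, all of them higher: all 4 alpha genes, Gstm1, Gstm3, and Gstp1. Gsta1 and Gstm3 had passed the filter on low counts only through the cisplatin-treated libraries in which they were high, so they had to differ, and of the other 8 members 5 were called. At an adjusted p below 0.05, 8 rose and 2, Gstt1 and Gstk1, fell. Cisplatin changed the kidney widely, and 24.1% of all genes tested were called, 12.1% as higher and 12.1% as lower. An adjusted p below 0.05 was reached by 70.5%, 34.6% as higher and 35.9% as lower. The median log2 fold change of the members was 1.37, against -0.01 over all genes tested. The Cisplatin and Vehicle libraries did not overlap for any of the 10 genes, which was also true of 55.3% of all genes tested.

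Gsta1, an alpha-class enzyme that conjugates reactive electrophiles and reduces lipid peroxides, showed the largest change. Vehicle libraries held 0.0972, 0.16, 0.0672, 0.0704, and 0.228 CPM, which is 2 to 7 counts per library. Cisplatin libraries held 39.3, 40.9, 38.6, 41.1, and 31.2 CPM, or 1101 to 1629 counts. Replicate 5 was the lowest of the Cisplatin group and still far above every Vehicle library. The fitted log2 fold change was 8.22 ± 0.34 (SE; adjusted p = 3.2e-15), and the ratio of pooled counts, 7189 against 18, was 308 (exact 95% interval 195 to 520, for counting error only). Among 17122 tested genes ranked by CPM per kilobase, 6.90% lay below Gsta1 in Vehicle kidneys and 93.8% in Cisplatin kidneys.

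Gsta2, its close relative, was already abundant. Vehicle libraries held 89.5, 101.9, 79.6, 88.0, and 117 CPM, and Cisplatin libraries 154, 190, 191, 203, and 254 CPM. The groups were separate, with Cisplatin replicate 5 the highest, in contrast to its place for Gsta1. The log2 fold change of 1.06 ± 0.14 (adjusted p = 3.0e-07) was just past the threshold for a call, and it was 0.96 without Cisplatin replicate 5. Summed over Gsta1, Gsta2, Gm3776, and Gm10639, between which reads are lost most, the level was 97.1 ± 14.7 CPM (SD, n = 5) in Vehicle and 275 ± 35.7 CPM (SD, n = 5) in Cisplatin kidneys.

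The main transcripts of Gsta3 and Gsta4 shared no 50-base window with another gene. Gsta3, another alpha-class conjugating enzyme, ranged from 107 to 116 CPM in Vehicle libraries and stood at 256, 339.5, 316, 323, and 337.4 CPM in Cisplatin libraries, a log2 fold change of 1.497 ± 0.10 (adjusted p = 6.9e-12). Gsta4, which conjugates 4-hydroxynonenal, a product of lipid peroxidation, was lower at the start. Vehicle libraries held 32.4, 46.4, 29.8, 32.7, and 32.9 CPM of Gsta4, and Cisplatin libraries 104, 97.1, 118, 121, and 162 CPM. Vehicle replicate 2 was high and Cisplatin replicate 5 the highest of its group, but the groups were well apart. Gsta4 rose by a log2 fold change of 1.79 ± 0.18 (adjusted p = 1.0e-08).

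The mu genes lie together on chromosome 3: Gstm3 (chr3:107963696-107969283), Gstm2 (chr3:107981702-107986453), and Gstm1 (chr3:108012255-108017973), all on the minus strand. Gstm1 was the most abundant member, and Vehicle libraries held 229, 237, 271, 285, and 322 CPM. Cisplatin libraries held 919, 1204, 942, 959, and 877 CPM, with replicate 2 above the other 4. The log2 fold change was 1.87 ± 0.10 (adjusted p = 2.7e-13). Gstm2 rose less, from 13.0 to 19.97 CPM in Vehicle libraries to 21.4 to 28.7 CPM in Cisplatin libraries, a log2 fold change of 0.61 ± 0.12 (adjusted p = 9.2e-05) that was not called. Gstm3 was scarce throughout: Vehicle libraries held 4, 1, 0, 0, and 6 counts and Cisplatin libraries 37, 44, 22, 25, and 24 counts. Its log2 fold change was 3.35 ± 0.50 (adjusted p = 2.9e-06), and the ratio of pooled counts was 10.7 (exact 95% interval 5.79 to 21.8).

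Gstp1 (chr19:4035407-4037985, minus strand), the pi-class enzyme long studied for its binding of drugs, stood at 24.6, 23.8, 24.5, 26.5, and 17.96 CPM in Vehicle and at 52.9, 58.6, 55.4, 59.9, and 52.5 CPM in Cisplatin libraries. The Cisplatin libraries lay close together, and the log2 fold change was 1.25 ± 0.11 (adjusted p = 7.3e-10). Gstp2, with which Gstp1 shares most of its lost reads, reached at most 1.204 CPM in any library.

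Gstt1 and Gstk1 went the other way. Gstt1 (chr10:75783813-75798584, minus strand), a theta-class enzyme that acts on small halogenated compounds, held 127, 109, 123, 104.9, and 114 CPM in Vehicle and 81.2, 104, 88.2, 89.5, and 91.4 CPM in Cisplatin libraries. The highest Cisplatin library lay just under the lowest Vehicle library, and the log2 fold change was -0.34 ± 0.07 (adjusted p = 0.00025). With scaling by library size only, under which the median of all genes moved from -0.01 to 0.20, Gstt1 stood at -0.13 (adjusted p = 0.11). Gstk1 (chr6:42245935-42250447, plus strand) held 60.2, 59.5, 60.7, 57.7, and 67.5 CPM in Vehicle and 26.03, 37.7, 33.8, 33.5, and 39.0 CPM in Cisplatin libraries. All Cisplatin libraries were clearly below, with a log2 fold change of -0.85 ± 0.09 (adjusted p = 7.6e-09).

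**Figure D2:**
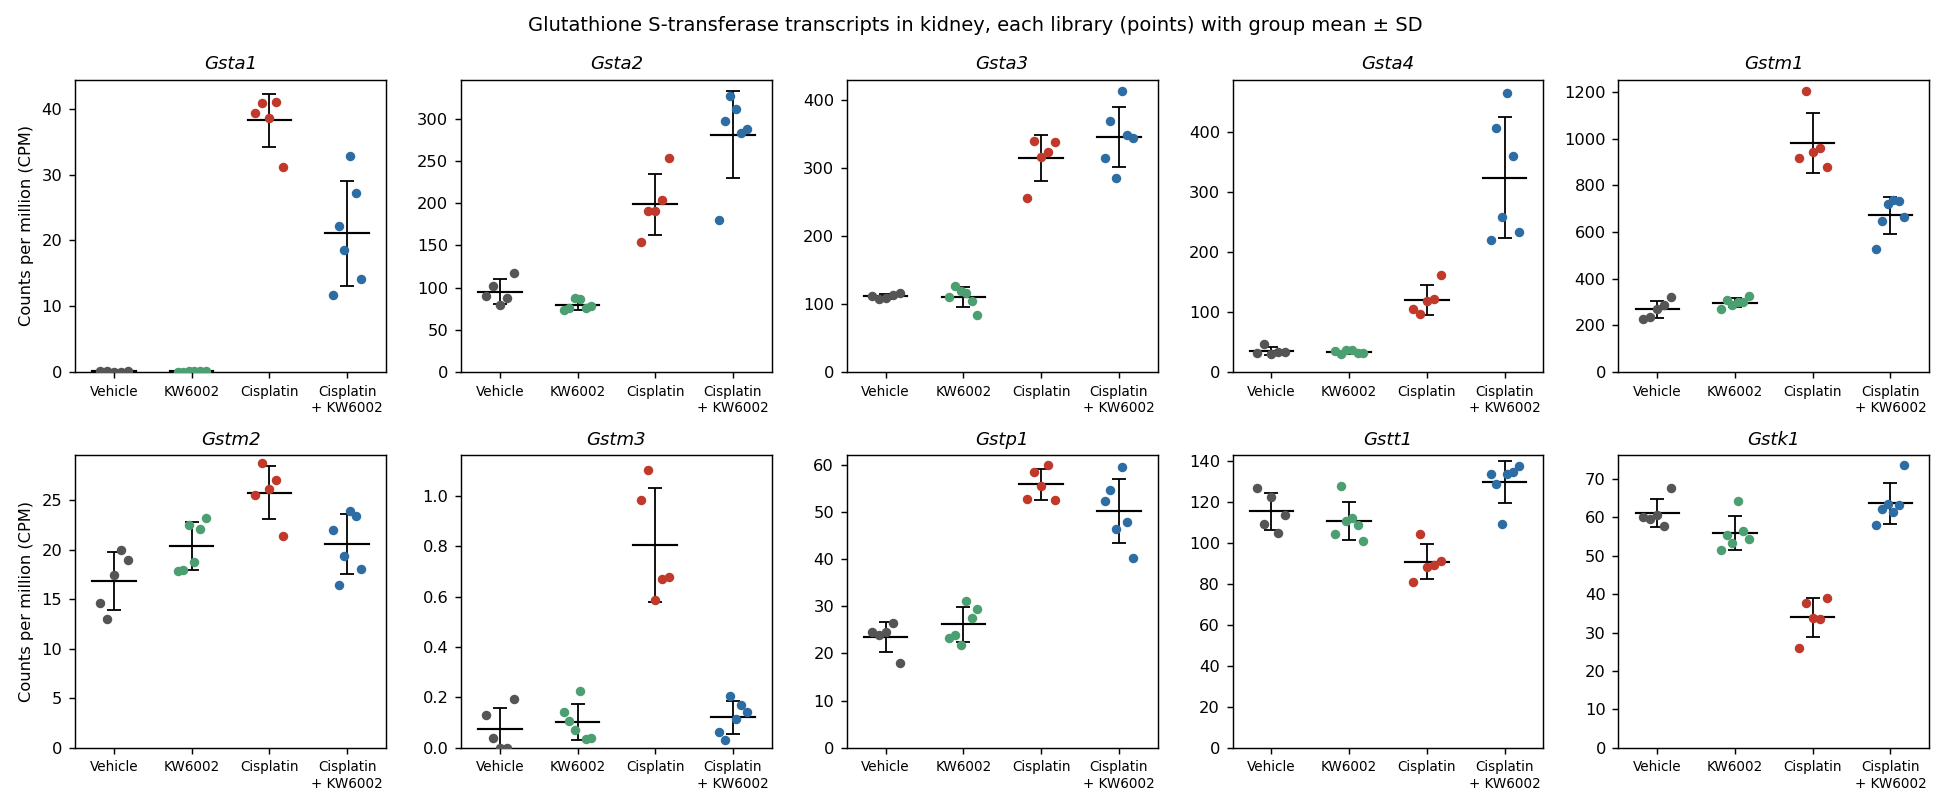
CPM (y axis, linear from 0, a scale of its own in each panel) of the 10 members in each library (points) of the 4 groups, with group mean and SD (lines; SD bars are cut at 0). Gsta1 is near 0 outside the cisplatin-treated groups, and Gstm3 is near 0 outside the Cisplatin group, the co-treated group included. Gsta4 is highest in the co-treated group, and Gstk1 and Gstt1 are lowest in the Cisplatin group.

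Only 2 Vehicle libraries share a number series, the 500s, with the Cisplatin libraries. Within the 500s all 10 genes kept their direction and an adjusted p below 0.05, from -0.89 for Gstk1 to 7.93 for Gsta1, and 6 were called, since Gsta2 stood at 0.95. Tubule markers moved over the same libraries. All 8 proximal tubule markers were lower in Cisplatin kidneys, with their sum at 2181 to 3636 CPM, and Havcr1 and Lcn2, markers of tubular injury, rose from a sum of 5.29 to 7.02 CPM to 1126 to 2136 CPM. All 3 distal convoluted tubule markers were lower, with their mean sum at 132 CPM against 1984 CPM, all 4 fibroblast markers were higher (645 CPM against 235 CPM), and both red cell markers were lower (0.10 CPM against 147 CPM). Of 4 liver markers, whose tissue also expresses several of these enzymes, Fgb rose from 2.02 to 78.2 CPM on average, while Alb, the defining gene of liver, was lower at 1.46 CPM against 9.08 CPM. The part of these shifts in the transferase levels was not tested.

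**Figure D3:**
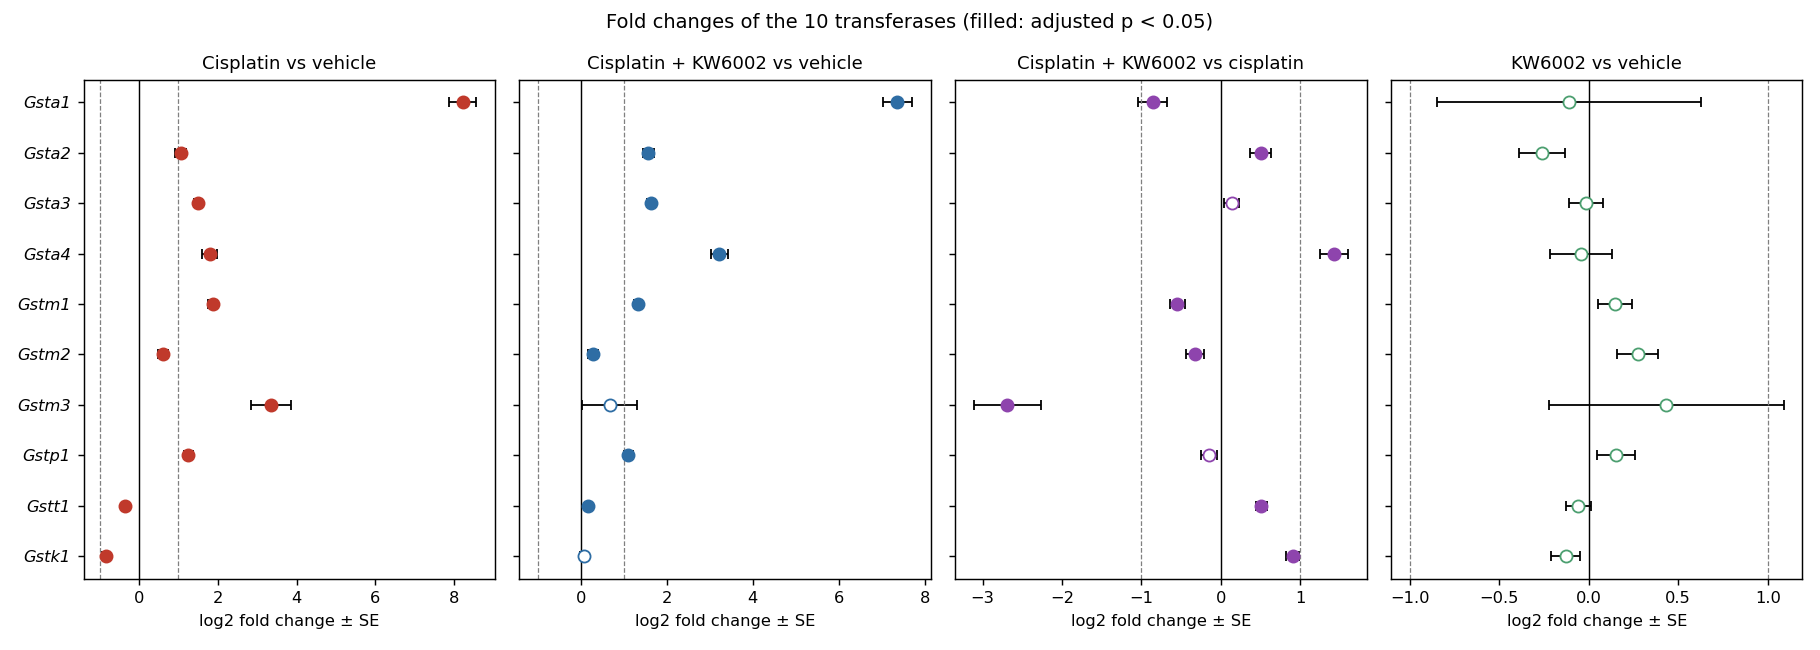
Log2 fold change (x axis, ± SE) of each member in 4 comparisons, with an x scale of its own in each panel. Filled points have an adjusted p below 0.05 and dashed lines mark a log2 fold change of 1 in either direction. In Cisplatin vs vehicle 8 points lie above 0 and 2 below, and in KW6002 vs vehicle no point is filled.

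The second comparison was that of co-treated with Cisplatin kidneys, to ask how KW6002 altered the response. The members split. Gsta4 was called higher and Gstm3 lower, so that 2 of 10 were called, where 10.3% of all genes tested were, 4.65% as higher and 5.66% as lower. At an adjusted p below 0.05, Gsta2, Gsta4, Gstt1, and Gstk1 were higher and Gsta1, Gstm1, Gstm2, and Gstm3 lower in co-treated kidneys, 8 of 10 against 55.8% of all genes tested (28.6% higher and 27.2% lower). The groups did not overlap for 5 of the 10, against 37.8% of all genes tested. Gstm3, part of each of these counts, had passed the filter on low counts only through the Cisplatin libraries. It therefore had to be lower in co-treated kidneys, and without it Gsta4 alone was called. The median log2 fold change was -0.01 for the members and 0.01 for all genes.

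Gsta4 in co-treated libraries ranged from 221 CPM over a median of 309 CPM to 466 CPM, and the lowest of them exceeded the highest Cisplatin library, 162 CPM. It rose by a log2 fold change of 1.43 ± 0.17 (adjusted p = 4.0e-07) over Cisplatin, on top of the Cisplatin level that was itself above Vehicle. Without co-treated replicate 6, the library with adrenal RNA, the change was 1.503. Against Vehicle, Gsta4 was higher by 3.22 ± 0.19 on the log2 scale (adjusted p = 4.1e-12). Co-treated kidneys varied more in Gsta4 than the other groups did, with a range from 221 to 466 CPM around a mean of 324 CPM.

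Gsta2 followed Gsta4 in direction, with 181 CPM, a median of 292 CPM, and 327 CPM in co-treated libraries and a log2 fold change of 0.50 ± 0.13 (adjusted p = 0.0021). Co-treated replicate 1, at 181 CPM, was the exception among libraries that otherwise held 283 CPM or more. Gsta1, by contrast, was lower than in Cisplatin kidneys, at 11.7 CPM, a median of 20.3 CPM, and 32.8 CPM, or -0.86 ± 0.18 on the log2 scale (adjusted p = 0.00036). Its groups overlapped slightly, since co-treated replicate 4 lay above Cisplatin replicate 5. Gsta1 nevertheless stayed far above Vehicle, with a ratio of pooled counts of 171 (exact 95% interval 108 to 289). Gsta3 held 285, a median of 345.9, and 413 CPM and did not pass, with a log2 fold change of 0.14 ± 0.09 (adjusted p = 0.22).

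Among the mu genes Gstm1 was lower in co-treated kidneys, at 527 CPM, a median of 693 CPM, and 735 CPM, all below the lowest Cisplatin library, 877 CPM. The log2 fold change was -0.55 ± 0.10 (adjusted p = 4.2e-05). Gstm2 changed by -0.33 ± 0.11 (adjusted p = 0.018), with 16.5 to 23.9 CPM in co-treated libraries overlapping the Cisplatin group; without Cisplatin replicate 2 its adjusted p was 0.054. Gstm3 returned to 1 to 6 counts per library, with 24 counts over the group, and the fitted change was -2.69 ± 0.42 (adjusted p = 1.1e-05). Its ratio of pooled counts to Vehicle was 1.60 (exact 95% interval 0.76 to 3.63), and its adjusted p against Vehicle was 0.38.

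Gstk1 and Gstt1, the pair that fell with cisplatin, were higher again in co-treated kidneys. Gstk1 held 57.9 CPM, a median of 62.7 CPM, and 73.7 CPM, all above every Cisplatin library, a log2 fold change of 0.90 ± 0.08 (adjusted p = 5.5e-09). Against Vehicle, Gstk1 differed by 0.06 ± 0.08 (adjusted p = 0.55), and by 0.21 (adjusted p = 0.013) with scaling by library size only, under which the median of all genes moved to 0.155. Gstt1 held 109 CPM, a median of 134 CPM, and 138 CPM, with replicate 3 the lowest by a wide gap, and rose by 0.51 ± 0.07 over Cisplatin (adjusted p = 2.5e-06). Gstp1, at 40.3 to 59.5 CPM, did not pass, with -0.15 ± 0.10 (adjusted p = 0.21).

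Other RNA moved in the same libraries. In co-treated against Cisplatin kidneys, 6 of 8 proximal tubule markers were higher, with their sum at 5960 to 11015 CPM, both injury markers were lower, and all 4 fat markers were lower, with their sum at 37.9 to 211 CPM against 336 to 627 CPM. With the level of the fat markers as a covariate, Gsta1 stood at -1.63 (adjusted p = 0.00091) and would be called, Gsta2 stood at 0.35 (adjusted p = 0.14), and the other 6 that had passed kept their direction and an adjusted p below 0.05. The part of the tubule markers was not tested.

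Set against Vehicle, 6 of 10 members were called in co-treated kidneys, where 13.4% of all genes tested were (5.83% higher and 7.59% lower): Gsta1 (7.36), Gsta4 (3.22), Gsta3 (1.63), Gsta2 (1.56), Gstm1 (1.32), and Gstp1 (1.10), all as log2 fold changes and all higher. All 6 lay above every Vehicle library, against 37.5% of all genes tested with no overlap. Gsta1, part of both counts, had passed the filter on low counts only through cisplatin-treated libraries, so it had to differ from Vehicle. An adjusted p below 0.05 was reached by 8 members, against 59.7% of all genes tested, 29.8% as higher and 29.9% as lower. Gstm2 (0.29, adjusted p = 0.037) and Gstt1 (0.17, adjusted p = 0.047) were near the limit. The Gstm2 value was 0.15 with the number series as a covariate (adjusted p = 0.30) and 0.08 within the 500s (adjusted p = 0.66), and it also missed the limit when only both groups were fitted (adjusted p = 0.068) and with the fat covariate (adjusted p = 0.26). For Gstm2 the limit was lost without any 1 of Vehicle replicates 1 and 2 and co-treated replicates 1, 4, and 5, and for Gstt1 without any 1 of 13 of the 22 libraries. This comparison shares the Vehicle libraries with the first and the co-treated libraries with the second.

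No difference in the 10 genes passed the test with KW6002 alone. No member was called or passed an adjusted p below 0.05 in edgeR, and the fold changes ran from -0.26 ± 0.13 (Gsta2, adjusted p = 0.45) to 0.43 ± 0.66 (Gstm3, adjusted p = 0.84) on the log2 scale. At an unadjusted p below 0.05, 1 member passed, Gstm2 (0.27 ± 0.12), against 11.3% of all genes tested, and DESeq2 also called 0 members. Of all genes tested, 0% were called and 0.0175% (3 genes) reached an adjusted p below 0.05. The KW6002 and Vehicle libraries overlapped for every member, and 1.38% of all genes tested showed no overlap. For the 8 abundant members the SE was between 0.07 and 0.17, while Gsta1 and Gstm3, with 1 to 6 counts per KW6002 library, had an SE of 0.74 and 0.66.

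Whether KW6002 acted differently in cisplatin-treated and untreated mice was tested directly, as an interaction. It was called for Gsta4 (1.47 ± 0.24, adjusted p = 4.7e-05), Gstk1 (1.04 ± 0.11, adjusted p = 3.1e-07), and Gstm3 (-3.12 ± 0.80, adjusted p = 0.0031), 3 of 10 against 8.58% of all genes tested (4.24% higher and 4.33% lower). Gsta2 (0.76), Gstt1 (0.57), Gstm1 (-0.69), and Gstm2 (-0.60) passed an adjusted p below 0.05 as well, 7 of 10 against 42.7% (22.8% higher and 19.9% lower). Gstm3, part of both counts, had passed the filter on low counts only through the Cisplatin libraries, so its difference had to be negative. The difference did not pass for Gsta1 (-0.75 ± 0.79, adjusted p = 0.47), whose level without cisplatin rests on 1 to 7 counts per library, nor for Gsta3 and Gstp1. The call of Gstk1 was lost without Vehicle replicate 5 (0.998), Cisplatin replicate 1 (0.95), or co-treated replicate 6 (0.98) or with scaling by library size only (0.96), and that of Gstm3 without KW6002 replicate 4 (adjusted p = 0.0105) or within the libraries of the 500s (adjusted p = 0.075), where Gstm2 also missed 0.05 (adjusted p = 0.057). Gstp1 passed within the 500s (-0.55, adjusted p = 0.024), with scaling by library size only (adjusted p = 0.0494), and without co-treated replicate 4 (adjusted p = 0.0496).

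Summed over the 10 members, the level was 728 ± 46.7 CPM in Vehicle (SD, n = 5), 735 ± 30.1 CPM in KW6002 (SD, n = 6), 1859 ± 159 CPM in Cisplatin (SD, n = 5), and 1908 ± 242 CPM in co-treated kidneys (SD, n = 6). Sums in the 2 cisplatin-treated groups thus overlapped, while the makeup differed. The mu class held 54.1% of the sum in Cisplatin kidneys, 48.2% to 58.7% by library, and 36.4% in co-treated kidneys, 33.1% to 40.02%. The alpha class held 36.2% and 50.7%, with libraries at 31.8% to 42.0% and at 47.9% to 54.7%. Gstk1 held 8.41% of the sum in Vehicle and 1.82% in Cisplatin kidneys. These shares were not tested. They are shares of counted reads, and unique windows made up 10.3% of Gsta1 and 35.8% of Gsta2 but 67.0% of Gstm1. Shares of transcripts may therefore differ from them. Over all 29 transferase genes, members and relatives, the mean sum was 1868 CPM in Vehicle and 1817 CPM in KW6002 kidneys. It was 3732 CPM in Cisplatin kidneys (3264 to 4214 CPM by library) and 3311 CPM in co-treated kidneys (2731 to 3603 CPM).

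**Figure D4:**
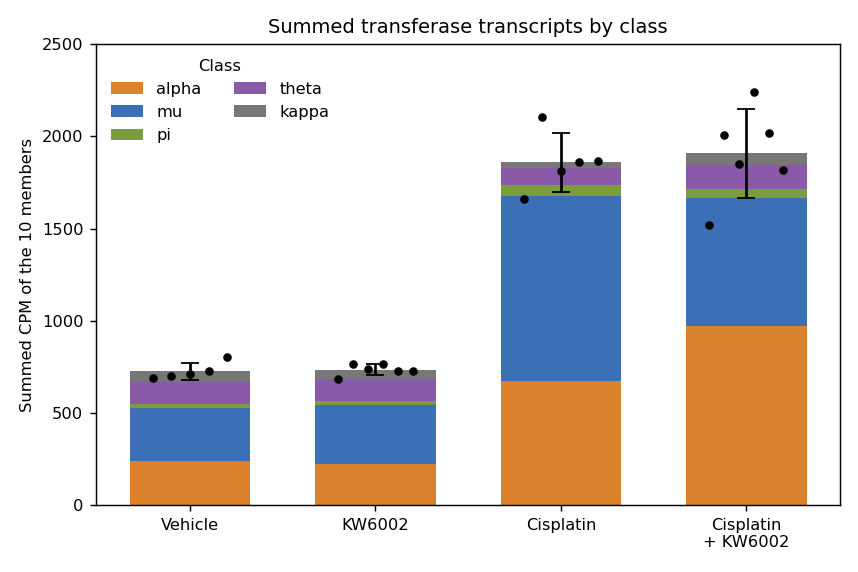
Summed CPM of the 10 members (y axis) in the 4 groups, stacked by class as group means, with the SD of the sum and the sum in each library (points). The Cisplatin and co-treated sums overlap, and the alpha part is larger in the co-treated bar and the mu part in the Cisplatin bar.

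Between genes, levels are compared per kilobase of exon. In Vehicle kidneys Gstm1 led with 183 CPM per kilobase, followed by Gsta2 (80.9) and Gstt1 (75.6), whose libraries overlapped, and then Gstk1 (41.6). Gsta4 (27.5) and Gsta3 (25.6) overlapped, as did Gstp1 (15.2) and Gstm2 (10.0), and Gsta1 (0.13) and Gstm3 (0.06) came last. In co-treated kidneys Gsta4, at 256 CPM per kilobase, had moved to the second place, overlapping Gstm1 above it (456) and Gsta2 below it (239). This order depends on the length used. Per kilobase of unique windows of the main transcript, which changes both the transcript and the part of it that counts, Gsta1 in Cisplatin kidneys stood at 450 CPM rather than 39.97 CPM. On that scale Gsta3 (223) was above Gsta4 (130) in Cisplatin kidneys, and in co-treated kidneys Gsta4 (350) lay below Gsta2 (956) and lost the second place.

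Of the other 18 tested transferases, 6 were called in Cisplatin against Vehicle, all higher, and 3 in co-treated against Cisplatin kidneys, all lower. Gm3776 and Gstp3, both among the 6, had passed the filter on low counts only through cisplatin-treated libraries. They therefore had to be higher than in Vehicle. At an adjusted p below 0.05, 10 rose and 1 fell with cisplatin, and 2 were higher and 9 lower with KW6002 added. The called shares lie beside 24.1% and 10.3% of all genes tested, and the 11 of 18 that passed an adjusted p below 0.05 in each comparison beside 70.5% and 55.8%. The median log2 fold changes were 0.41 and -0.26. Gm3776, the twin of Gsta1, moved like it, from 0.08 CPM in Vehicle to 17.6 CPM in Cisplatin and 6.25 CPM in co-treated kidneys on average, and was called in both comparisons (7.78 and -1.49). Gm10639, the relative of Gsta2, rose by 3.54 on the log2 scale with cisplatin. With KW6002 added it was lower by 0.79 (adjusted p = 0.044), opposite in direction to Gsta2 itself. Co-treated libraries of Gm10639 were widely spread, from 4.70 to 28.95 CPM, and overlapped the Cisplatin libraries at 14.1 to 27.6 CPM.

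Next to the mu members, Gstm5 rose from 107 to 293 CPM and was lower at 161 CPM in co-treated kidneys, with log2 changes of 1.45 and -0.87, and Gstm6 rose by 2.51 and was lower by 1.12. Mgst1, a membrane-bound transferase of the endoplasmic reticulum with a separate evolutionary origin, went from 87.0 CPM to 484 CPM and 280 CPM. Mgst3 (0.83 and -0.28) and Gstt3 (0.57 and -0.34), a neighbour of Gstt1 on chromosome 10, also rose with cisplatin and were lower in co-treated kidneys. Gstp3 rose by 3.83, from 0.21 CPM to 3.01 CPM, and at 4.16 CPM in co-treated kidneys was higher still (0.46, adjusted p = 0.014).

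The rest of the glutathione pathway is given by its counts, to be read against the 70.5% of all genes tested that passed an adjusted p below 0.05 with cisplatin (34.6% higher and 35.9% lower) and the 55.8% that passed in co-treated against Cisplatin kidneys; the lists were not tested as sets. In synthesis and reduction, 7 of 11 genes rose and 3 fell with cisplatin. Gclc, the catalytic subunit of the rate-limiting enzyme of glutathione synthesis, rose from 272 to 1507 CPM (log2 2.47), and Slc7a11, the cystine transporter, from 0.67 to 8.41 CPM (3.64). Pgd, which supplies NADPH, rose by 1.29, while Ggct, which breaks gamma-glutamyl dipeptides, fell by 1.59. In co-treated against Cisplatin kidneys 2 of the 11 were higher and 3 lower, with Slc7a11 at -2.71 and Gclc at -0.43.

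In breakdown and the mercapturate steps, which process conjugates after a transferase has made them, 8 of 14 tested genes fell and 4 rose with cisplatin, and 7 of the 8 calls were lower. Acy3, an aminoacylase that deacetylates mercapturates, fell from 1702 to 225 CPM (log2 -2.92), Ggt1, the gamma-glutamyl transferase of the proximal tubule brush border, from 1359 to 272 CPM (-2.32), and Nat8, which acetylates cysteine conjugates, from 242 to 52.9 CPM (-2.19). Chac1, a cytosolic enzyme that degrades glutathione, rose by 2.39. With KW6002 added, 10 of the 14 were higher and 3 lower than in Cisplatin kidneys, and Nat8 (1.77) and Ggt1 (1.55) were called higher.

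Of 7 exporters of conjugates, 6 rose with cisplatin and none fell at an adjusted p below 0.05. Abcc3 rose from 4.15 to 72.0 CPM (log2 4.12) and Abcc4 from 77.1 to 196 CPM (1.34), while Abcc1 (0.98) and Abcc2 (0.80) did not reach the threshold for a call. In co-treated against Cisplatin kidneys 5 of the 7 were lower, Abcc3 by 1.67, and Abcc2, an apical exporter, was higher (0.45). Among NRF2, its inhibitor Keap1, and 7 known targets, 8 of 9 rose with cisplatin and Keap1 fell by 0.15. Srxn1 (3.78), Slc7a11 (3.64), Nqo1 (2.62), and Gclc (2.47) changed most. In co-treated against Cisplatin kidneys 6 of the 9 were lower, with Srxn1 at -1.33, and Nqo1, at 474 and 459 CPM, did not pass (-0.05 ± 0.14, adjusted p = 0.79). The median log2 fold changes of this list were 2.02 and -0.58.

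**Figure D5:**
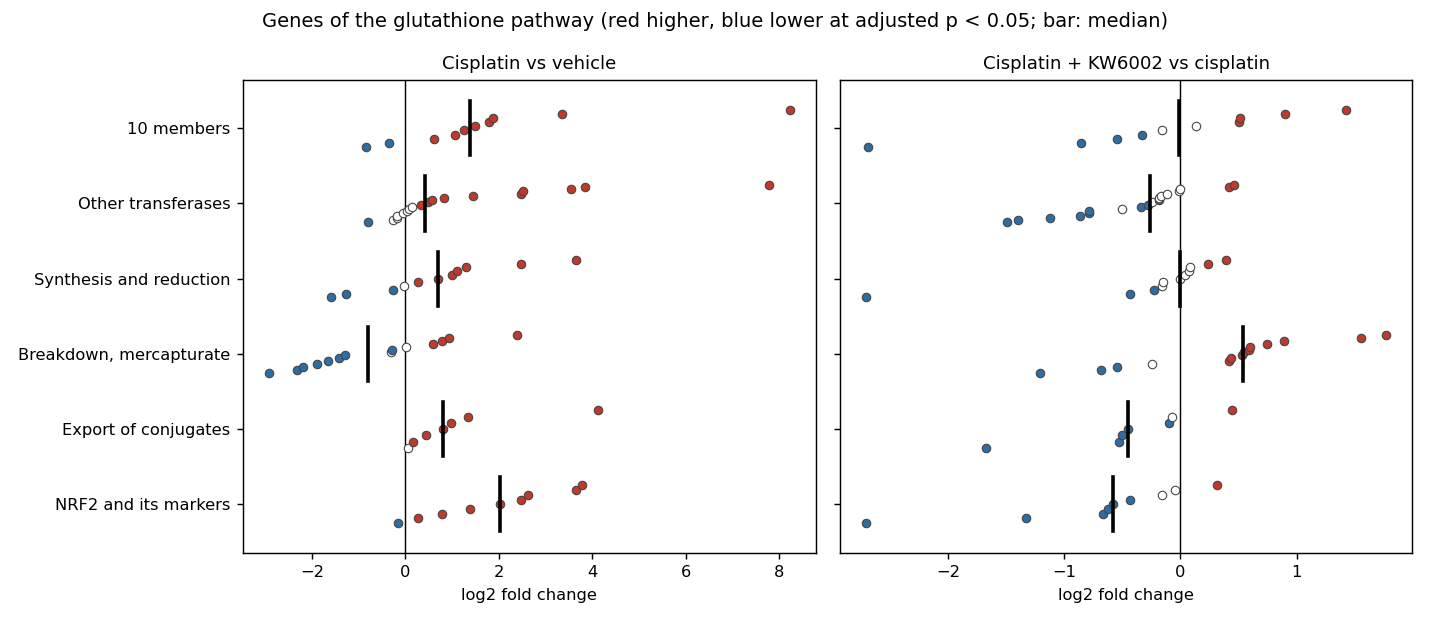
Log2 fold change (x axis) of each tested gene (points) in 6 gene lists (rows) for Cisplatin vs vehicle and for co-treated vs cisplatin kidneys. Red points are higher and blue points lower at an adjusted p below 0.05, open points did not pass, and bars mark list medians. The median of the breakdown and mercapturate list lies at -0.80 on the left and at 0.54 on the right, opposite in sign to the NRF2 list in both panels.

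Since 8 members and 8 genes of the NRF2 list rose with cisplatin, the members' promoters were read for the core of the antioxidant response element, to which NRF2 binds, TGACNNNGC on either strand. RefSeq promoter windows (GRCm38.p6; 250 bases before to 50 after a start) were found for 9 of the 10 members, all but Gsta4. The core was in 12.4% of 32851 such windows and in 1 of the 9 members, Gsta3, where it starts 121 bases before the start. The 250 bases upstream of Gsta3 (chr1:21240335-21240584, plus strand) are shown 5′ to 3′ with the match in capitals, because this is the 1 member window that holds the core:
Gsta3: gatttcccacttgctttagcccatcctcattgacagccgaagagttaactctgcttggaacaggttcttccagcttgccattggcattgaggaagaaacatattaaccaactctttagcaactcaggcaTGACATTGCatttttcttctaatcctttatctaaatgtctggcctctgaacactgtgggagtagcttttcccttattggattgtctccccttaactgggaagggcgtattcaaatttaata
Among the other transferases the core was in the windows of Gstm5, Gstm7, and Mgst1. The core of the dioxin response element, GCGTG, was in 32.4% of all windows and in those of Gsta1, Gsta2, Gstm1, and Gstp1, and in the window of Gstm5 it overlaps the antioxidant core. The palindromic binding motif of HNF1 was in 0.009% of all windows and in that of no member. These matches are letters within a short window and are no measure of binding. Elements outside the window, or written with letters other than these motifs, were not looked for. A window without a match therefore does not show that a gene lacks such an element.

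Outside all these lists, the genes most like Gsta1 over the 22 libraries, by the root mean square difference of log2 CPM relative to each gene's own Vehicle mean, were Lcn2 (0.69), Havcr1 (0.74), and Sprr2g (0.81). Averages in Vehicle, Cisplatin, and co-treated kidneys were 3.90, 1240, and 290 CPM for Lcn2 and 2.10, 583, and 185 CPM for Havcr1. For Sprr2g they were 0.12, 19.3, and 10.8 CPM, beside 0.12, 38.2, and 21.1 CPM for Gsta1. Lcn2 and Havcr1 are known as genes of injured tubule. Gstk1, the member with the largest fall, was most like Ddt (0.09), Hpn (0.12), and Pcbp4 (0.13). Ddt, a tautomerase encoded next to theta transferase genes, averaged 38.3 CPM in Vehicle, 21.7 CPM in Cisplatin, and 41.8 CPM in co-treated kidneys. For Gsta4, chosen after its values were seen, the nearest were Gm6614 (0.48), Akr1c12, an aldo-keto reductase (0.50), and Clca3a1 (0.53), all 3 with their highest average in co-treated kidneys.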

How the data were processed

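Kidney poly(A) RNA of 22 samples was sequenced as single 50-base reads from a stranded kit. Per the labels and the study's methods, the authors demultiplexed with bcl2fastq (2.17.1.14), aligned to mm10 with STAR, kept uniquely aligned reads, and deposited raw HTSeq (0.6.1p1) counts per Ensembl gene. The strand setting is not given in the sources used here, and 66 unnamed empty columns of the table were not used. Totals ran from 26471762 to 40510754 counts. Genes with few counts therefore carry wide errors, as do Gsta1 outside the cisplatin-treated groups and Gstm3 outside the Cisplatin group.

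Groups came from the labels. Counts were fitted with edgeR (4.0.16, R 4.3.3) quasi-likelihood models with TMM factors, 1 mean per group over all 22 libraries, and filterByExpr by group (10 counts at the median library size in at least 5 libraries), which left 17131 genes and removed 15727. The fit was tested on simulated data with few changed genes and the same spread for every gene, a simpler setting than these data. Alternatives were DESeq2 (1.42.0), other scalings, filters, thresholds and sample sets, a replicate block, leaving out each library, and a fat marker covariate added after seeing the data.

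The members and all gene lists were chosen with earlier results of these data known. Besides the members, the text names the other transferases and list genes with the largest absolute change in Cisplatin against Vehicle kidneys among those averaging at least 1 CPM (at most 8 transferases and 4 of each other list), and the 3 genes nearest to Gsta1 and to Gstk1. Keap1, Gstp2 and the marker genes were named beside the results they touch. Sequences came from GENCODE M21 transcripts and RefSeq windows, matched for 9 of 10 members. Unique windows are 50-base stretches found in no other annotated gene.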

Additional observations from a re-analysis of the deposited data

Results flagged for a closer look

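Within 40 sets of libraries (10 genes in 4 groups), 7 held a library far from the others by Dixon's criterion, where chance gives about 1 in 20. Vehicle replicate 2 was the highest in Gsta4, at 46.4 CPM. Cisplatin replicate 5 was the lowest in Gsta1, at 31.2 CPM, Cisplatin replicate 1 the lowest in Gsta3, at 256 CPM, and Cisplatin replicate 2 the highest in Gstm1, at 1204 CPM. Co-treated replicate 1 was the lowest in Gsta2, at 181 CPM, and co-treated replicate 3 the lowest in Gstt1, at 109 CPM. Co-treated replicate 6, the library with adrenal RNA, was the highest in Gstk1, at 73.7 CPM.

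In the interaction test, the KW6002 effect differed between mice with and without cisplatin at an adjusted p below 0.05 (edgeR) for 7 members. Each difference is the KW6002 effect with cisplatin minus that without, on the log2 scale. It was positive for Gsta4 (1.47), Gstk1 (1.04), Gsta2 (0.76), and Gstt1 (0.57), and negative for Gstm2 (-0.60), Gstm1 (-0.69), and Gstm3 (-3.12). That of Gstm3 had to be negative, since this gene passed the filter on low counts only through the Cisplatin libraries.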

How the results depend on the processing

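Without a fold threshold, 8 members passed in co-treated against Cisplatin kidneys and 7 in the interaction, and 11 other transferases passed in each of Cisplatin against Vehicle and co-treated against Cisplatin. With edgeR's test against a 2-fold change these fell to 1 member in co-treated against Cisplatin, 0 in the interaction, and 0 other transferases in co-treated against Cisplatin. That test also left 5 members in Cisplatin against Vehicle, in place of 7, and 5 in co-treated against Vehicle, in place of 6. Requiring 10 counts in every library removed Gsta1 and Gstm3 and left 1 member and 1 other transferase called in co-treated against Cisplatin kidneys, with 5 members called in Cisplatin against Vehicle, 5 in co-treated against Vehicle, and 2 in the interaction. Leaving out each library in turn gave 6 to 7 members called in Cisplatin against Vehicle, 2 to 3 in co-treated against Cisplatin, 6 in co-treated against Vehicle, 0 with KW6002 alone, and 2 to 3 in the interaction, with 6 and 2 to 3 other transferases in the first 2 comparisons. Those that moved a call were Cisplatin replicate 5 for Gsta2, co-treated replicate 4 for Gsta1 (-1.03, then called lower), and those given for the interaction.

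Signs turned only in differences that passed in neither fit. Gsta3 in co-treated against Cisplatin stood at -0.015 with the fat covariate. With KW6002 alone, the libraries of the 500s gave -0.027 for Gstm3, 0.018 for Gsta4, and 0.075 for Gsta1, and the replicate block gave 0.0101 for Gsta3 and 0.022 for Gsta4. Leaving out a library gave a range of -0.0615 to 0.049 for Gsta3, -0.095 to 0.079 for Gsta4, and -0.28 to 0.24 for Gsta1.

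The replicate numbers were not taken to pair the libraries: the median correlation was 0.01 over 31 pairs of the same number, of which 7 passed 0.1, and -0.0014 over 150 pairs of different numbers, of which 12 did. Pairing was read as shown only where every pair passes 0.1. This rule is strict and does not exclude a weaker link between libraries of the same number. With the replicate block the members called were 7, 2, 0, 6, and 3 in the 5 comparisons, as without it, and it lost Gstt1 in co-treated against Vehicle (adjusted p = 0.067). Scaling by library size only moved the share of calls that were higher from 50.01% to 62.6% in Cisplatin against Vehicle and from 43.4% to 56.5% in co-treated against Vehicle.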
